A study of Mus musculus with 18 samples.

Results

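Histone acetylation enzymes and chromatin remodelers were followed as 10 transcripts in single mouse 2-cell embryos. The members were chosen by RefSeq identifier and comprise 4 deacetylases (Hdac1, Hdac2, Hdac3 and Sirt1), 3 acetyltransferases (Ep300, Crebbp and Kat2a) and 3 remodeling ATPases (Smarca4, Smarca5 and Chd4). All 10 rows were found among the 26823 transcripts of the files, of which 22526 had a count in some embryo. RNA sequencing covered 18 embryos, 3 from each of 6 fathers. Fathers 1, 2 and 3 were wild-type (WT) and gave 9 embryos. Fathers 6, 7 and 8 were Parg(110)-/- males, which lack the long isoform of poly(ADP-ribose) glycohydrolase, the enzyme that degrades poly(ADP-ribose), and gave the other 9 embryos. Animals of both groups were of strain 129SVE, the mothers were WT, and mating was natural, so the embryos of Parg(110)-/- fathers are heterozygous and the genotype in a sample's label is that of its father. These embryos are called Parg(110) embryos here, and an embryo is named by father and number (7-2 is embryo 2 of father 7). The question behind the comparison is whether the altered sperm chromatin of Parg(110)-/- males is followed by other transcript levels in their offspring.

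Acetyl groups on histone tails loosen the hold of histones on DNA and are bound by bromodomain proteins. Acetyltransferases place them, deacetylases remove them, and ATP-driven remodelers slide, space or evict nucleosomes. After fertilization the sperm genome exchanges protamines for histones supplied by the egg, and at the 2-cell stage the mouse embryo starts the major wave of its own transcription while maternal transcripts are being degraded, so a transcript counted at this stage can be maternal or newly made. Fewer copies in the egg and less transcription in the embryo cannot be told apart in these data.

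Totals lay between 2852858 and 13355161 counts in the WT embryos and between 3560501 and 12497060 in the Parg(110) embryos. Levels are given as CPM, the counts scaled to 1000000 counts in an embryo's file, in which 1 count was worth 0.0749 to 0.351 CPM. Of 22 markers of the oocyte and 2-cell embryo 21 had a row, and each of these was counted in some embryo, with a summed level of 2253 to 4108 CPM in WT and 1828 to 5754 CPM in Parg(110) embryos. Oocyte transcripts such as Npm2 (mean 1340 CPM in WT) and Nlrp5 (452 CPM) made up most of the sum, and 2-cell markers were lower, with WT means of 3.17 CPM for Zscan4c, 6.86 for Zfp352 and 25.7 for Tcstv3. Of 14 cumulus and granulosa markers 6 (among them Ptx3, Fshr and Foxl2) were at 0 in all embryos, and the summed level was 5.27 to 44.4 CPM in WT and 5.94 to 22.9 CPM in Parg(110) embryos. Amhr2 of this list was counted in 18 embryos (mean 14.02 CPM in WT and 8.95 CPM in Parg(110) embryos), and Cyp19a1 and Star in 10 embryos each. Of 12 sperm markers 6 (among them Prm1, Tnp1 and Tnp2) were at 0, and the sum did not exceed 17.7 CPM in WT and 14.96 CPM in Parg(110) embryos, the levels of Ldhc alone, which was counted in 11 embryos. Parg itself (NM_011960) was at 74.7 ± 32.1 CPM in WT and 46.4 ± 18.3 CPM in Parg(110) embryos (SD, n = 9 each), with a log2 fold change of -0.67 (SE 0.34) and an adjusted p of 0.872. The counted transcript reaches beyond the disrupted part and the embryos carry 1 intact allele, so this is a weak check of the labels.

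The abundant members were both large acetyltransferases and the 3 remodelers, and the scarcest was Hdac3. Lengths were those of the longest annotated transcript of each gene, not of the counted RefSeq row, so levels per kilobase and ratios between members are approximate. Per kilobase, the mean over 18 embryos was 111 ± 36.5 CPM for Crebbp, 110 ± 44.9 for Chd4, 72.5 ± 18.8 for Ep300, 58.3 ± 41.5 for Smarca4 and 52.0 ± 14.8 for Smarca5 (SD). Hdac2 followed at 44.1 ± 34.0, then Hdac1 at 19.98 ± 11.2, Kat2a at 18.2 ± 12.8, Sirt1 at 15.4 ± 5.502 and Hdac3 at 0.409 ± 1.11 CPM per kilobase. Most neighbours in this order did not differ beyond their spread. Crebbp was above Chd4 in 11 of 18 embryos, Smarca4 above Smarca5 in 12, Smarca5 above Hdac2 in 11, Hdac1 above Kat2a in 10 and Kat2a above Sirt1 in 11. The steps that held in more embryos were Chd4 above Ep300 (14), Ep300 above Smarca4 (15), Hdac2 above Hdac1 (16) and Sirt1 above Hdac3 (18 of 18).

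**Figure D1:**
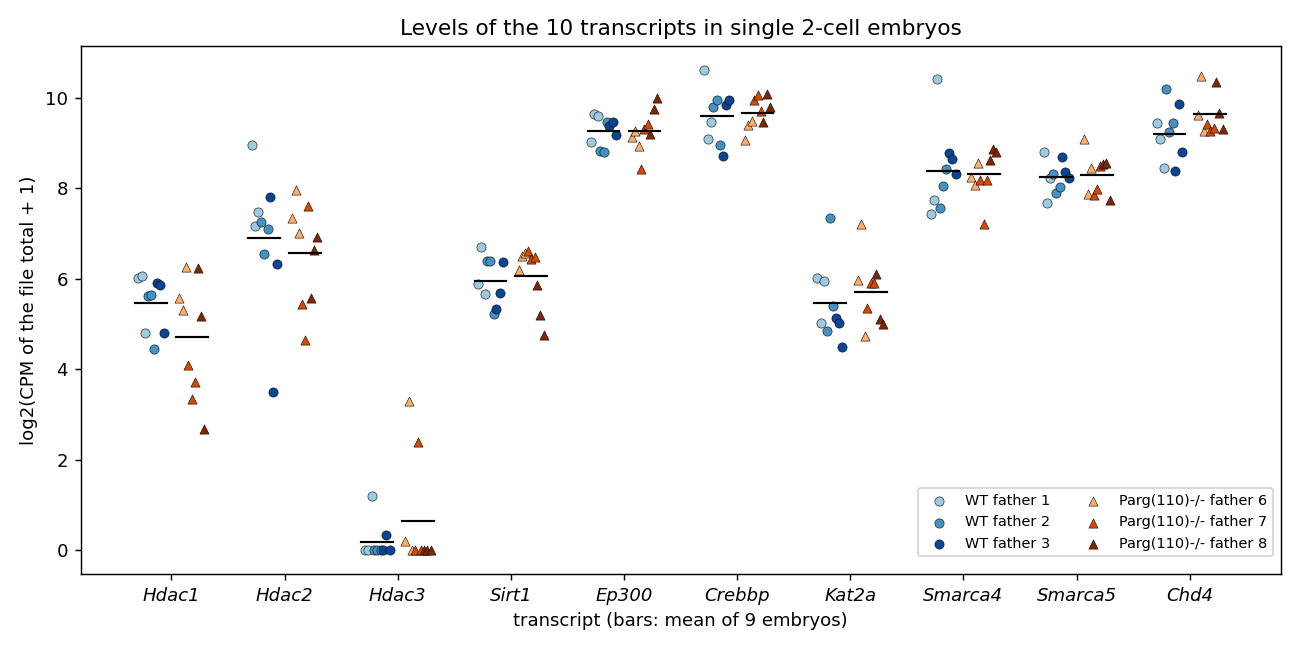
Level of each of the 10 transcripts in each embryo as log2(CPM of the file total + 1), with circles for WT and triangles for Parg(110) embryos, shades for fathers and bars for the mean of 9 embryos. The 2 groups overlap for every transcript, Hdac3 is at 0 in 13 of 18 embryos, and the Hdac1 points of father 7 lie under all WT points.

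Promoter windows (RefSeq, GRCm38.p6, 250 bases before to 50 after the start) were matched for 8 members. The windows of Sirt1, Smarca4 and Ep300 are shown because the levels of these 3 transcripts were the most related among members across embryos, as described further on. Capitals mark the GC box, searched as GGGCGG on both strands with overlapping matches counted. The Sirt1 window (chr10:63338986-63339285, minus strand) holds 7 matches, the Smarca4 window (chr9:21615919-21616218, plus strand) holds 3, and the Ep300 window (chr15:81585964-81586263, plus strand) holds 1.
Sirt1: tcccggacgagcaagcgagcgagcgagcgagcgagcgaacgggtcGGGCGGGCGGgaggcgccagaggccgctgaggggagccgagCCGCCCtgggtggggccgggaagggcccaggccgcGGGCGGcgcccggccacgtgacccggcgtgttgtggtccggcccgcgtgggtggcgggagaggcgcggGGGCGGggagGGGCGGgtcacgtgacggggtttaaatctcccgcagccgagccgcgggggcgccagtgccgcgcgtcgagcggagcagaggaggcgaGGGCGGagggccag
Smarca4: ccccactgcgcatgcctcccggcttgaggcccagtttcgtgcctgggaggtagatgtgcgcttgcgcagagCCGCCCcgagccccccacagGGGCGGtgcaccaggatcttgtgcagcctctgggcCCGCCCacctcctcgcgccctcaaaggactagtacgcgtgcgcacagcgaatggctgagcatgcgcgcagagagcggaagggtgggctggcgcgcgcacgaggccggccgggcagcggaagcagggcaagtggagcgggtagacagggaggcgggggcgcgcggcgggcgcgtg
Ep300: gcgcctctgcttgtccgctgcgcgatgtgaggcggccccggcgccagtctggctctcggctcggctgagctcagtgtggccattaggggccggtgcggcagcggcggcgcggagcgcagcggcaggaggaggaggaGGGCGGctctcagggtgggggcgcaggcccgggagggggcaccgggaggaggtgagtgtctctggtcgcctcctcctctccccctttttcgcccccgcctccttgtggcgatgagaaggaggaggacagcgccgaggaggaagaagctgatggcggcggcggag
The GC box was present in 8 of the 9 windows of members, against 35.7% of all 32851 windows of the same length, and the window without it was that of Kat2a. Chd4 has 2 windows, which overlap and share sites. CCAAT on either strand was found in these 2 windows, as 1 shared site, and in no other member window, against 37.4% of all windows, and TATAAA in none, against 13.6%. The number of CpG dinucleotides ran from 17 in 1 Chd4 window to 49 in the Crebbp window, with a median of 32 over the member windows and 7 over all windows. A match describes these letters only.

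No member passed the test between Parg(110) and WT embryos. In the quasi-likelihood test of edgeR, 0 of the 9 members that passed the low-count filter had an adjusted p below 0.1, where 0.0% of 15333 transcripts tested did, and 0 of 9 had an unadjusted p below 0.05, where 5.8% did. DESeq2 called 0.248% of the 15333 transcripts and none of the members. The log2 fold change was above 0 for 5 members and below 0 for 4, with a median of 0.05, beside a median of -0.02 over all transcripts tested. An exact two-sided permutation test of mean CPM over embryos (48620 splits, 10 transcripts tested, p not adjusted) gave p between 0.175 for Chd4 and 0.985 for Crebbp. With the mean of each father in place of embryos, where the smallest possible p is 0.1, the lowest exact permutation p was 0.2, again for Chd4.

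**Figure D2:**
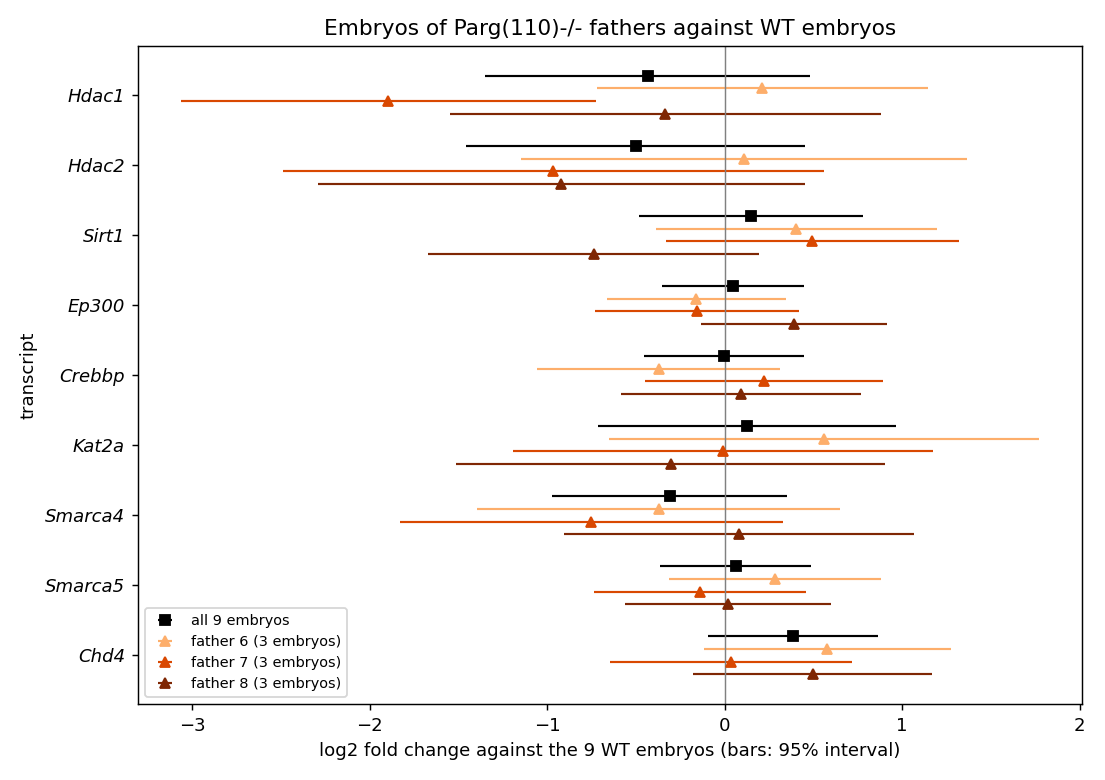
Log2 fold change of the 9 tested members against the 9 WT embryos, with 95% intervals, for all 9 Parg(110) embryos (black squares) and for the 3 embryos of each Parg(110)-/- father (triangles). All black intervals include 0, and of the intervals by father that of Hdac1 in father 7 alone does not.

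Among the deacetylases, Hdac1 (NM_008228, chr4:129193348-129219957, mm9, minus strand) and Hdac2 (NM_008229, chr10:36694350-36721695, plus strand) encode the paired catalytic subunits of the Sin3, NuRD and CoREST complexes. Hdac1 lay at 20.7 to 65.7 CPM in WT embryos (median 49.1) and at 5.42 to 75.7 CPM in Parg(110) embryos (median 35.0). The Parg(110) embryos reached below and above the WT range. The means were 46.6 ± 17.3 and 34.9 ± 26.99 CPM (SD, n = 9 each), and the log2 fold change was -0.43 (SE 0.47, adjusted p 0.971). Without father 7, whose embryos are described further on, it was -0.03. Hdac2 lay at 10.3 to 497 CPM in WT embryos (median 142) and at 24.2 to 249.8 CPM in Parg(110) embryos (median 121). The WT embryos held both the lowest value, in 3-2, and the highest, in 1-1. Its log2 fold change was -0.50 (SE 0.49, adjusted p 0.968), and the 95% interval of the fold ran from 0.365 to 1.37. Without father 1, whose embryo 1-1 is the highest, the log2 fold change was 0.06. Per kilobase, Hdac2 exceeded Hdac1 in 8 of 9 WT and 8 of 9 Parg(110) embryos, with median ratios of 1.964 and 1.75 (exact permutation test on the log2 ratio, p = 0.554).

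Hdac3 (NM_010411), a class I deacetylase of nuclear corepressor complexes, was barely counted. It was at 0 in 7 of 9 WT and 6 of 9 Parg(110) embryos, and its counts in the others were 9 in 1-3, 2 in 3-2, 2 in 6-1, 84 in 6-2 and 40 in 7-2. Only 1-3, 6-2 and 7-2 were above 3 counts, the number that a count of 0 allows, which corresponds to 0.225 to 1.05 CPM in WT and 0.24 to 0.843 CPM in Parg(110) embryos. The levels in these 3 embryos were 1.30, 8.78 and 4.27 CPM. Hdac3 did not pass the filter for the group comparison, and no fold is given. The exact permutation test of its mean CPM gave p = 0.4.

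Sirt1 (NM_019812, chr10:62781753-62844452, minus strand), an NAD+-dependent deacetylase of histones and other proteins, lay at 36.5 to 103 CPM in WT embryos (median 58.2) and at 25.9 to 97.6 CPM in Parg(110) embryos (median 85.8). The ranges overlapped almost wholly. The means were 64.9 ± 23.2 and 71.9 ± 26.4 CPM, with a log2 fold change of 0.15 (SE 0.32, adjusted p 0.991) and a 95% interval of the fold of 0.716 to 1.72. A second RefSeq row of Sirt1 (NM_001159589) held the same counts in 6 embryos and differed by at most 72 counts in the others.

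Of the acetyltransferases, Ep300 (NM_177821, chr15:81415781-81482507, plus strand) and its paralogue Crebbp (NM_001025432, chr16:4084048-4213404, minus strand) encode coactivators that acetylate histone H3 at enhancers and promoters. Ep300 lay at 443 to 798 CPM in WT embryos (median 659.6) and at 341 to 1016 CPM in Parg(110) embryos (median 618). Its means of 626 ± 134 and 643 ± 198 CPM gave a log2 fold change of 0.05 (SE 0.20, adjusted p 1), and the 95% interval of the fold, 0.784 to 1.36, was the narrowest among the members. Crebbp lay at 418 to 1569 CPM in WT embryos (median 888) and at 533 to 1088 CPM in Parg(110) embryos (median 838). Its means of 836 ± 352 and 833 ± 191 CPM were nearly equal, with a 95% interval of the fold of 0.731 to 1.37 (adjusted p 1). Per kilobase Crebbp exceeded Ep300 in 6 of 9 WT and in 9 of 9 Parg(110) embryos, with median ratios of 1.495 and 1.415, and the difference in log2 ratio between the groups was within the spread of embryos (exact permutation p = 0.851).

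Kat2a (NM_020004, chr11:100566060-100573779, minus strand), the GCN5 acetyltransferase of the SAGA and ATAC complexes, lay at 21.5 to 162 CPM in WT embryos (median 33.9) and at 25.8 to 147 CPM in Parg(110) embryos (median 59.0). In each group 1 embryo stood above the others, 2-2 in WT and 6-2 in Parg(110). The log2 fold change was 0.13 (SE 0.43, adjusted p 1), and the 95% interval of the fold, 0.611 to 1.95, covers close to a doubling. The second RefSeq row of Kat2a (NM_001038010) held the same counts in all 18 embryos.

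Smarca4 (NM_011417, chr9:21420613-21508674, plus strand) encodes BRG1, an ATPase of the SWI/SNF complexes that is loaded into the egg and needed for activation of the mouse embryonic genome. It lay at 171 to 1360 CPM in WT embryos (median 319) and at 147 to 469 CPM in Parg(110) embryos (median 305). Embryo 1-3 alone, at 1360 CPM, exceeded the next WT embryo, 3-1 at 440.3 CPM. The means were 411 ± 368 and 332 ± 101 CPM, with a log2 fold change of -0.31 (SE 0.34, adjusted p 0.971). Without embryo 1-3 the direction turned: the log2 fold change was 0.20 (adjusted p 0.994), and the means of 292 and 332 CPM differed with an exact permutation p of 0.419. The rows of its other isoforms matched it in counts in 18 embryos (NM_001174079) and in 14 embryos (NM_001174078, at most 17 counts apart elsewhere).

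Smarca5 (NM_053124, chr8:83222406-83263396, minus strand) encodes SNF2H, the ISWI ATPase that spaces nucleosomes. It lay at 204.5 to 448 CPM in WT embryos (median 298) and at 212 to 540.4 CPM in Parg(110) embryos (median 349.6), with a log2 fold change of 0.06 (SE 0.22, adjusted p 1) and a 95% interval of the fold of 0.777 to 1.40. Chd4 (NM_145979, chr6:125045999-125080609, plus strand) encodes the ATPase of NuRD, which joins remodeling to the deacetylases Hdac1 and Hdac2. It lay at 333 to 1171 CPM in WT embryos (median 601) and at 610.5 to 1428 CPM in Parg(110) embryos (median 685). The lowest Parg(110) embryo was thus above the WT median, and the groups still overlapped over most of their range. How many of all transcripts show such a position was not counted. The means of 639.8 ± 273 and 836 ± 309 CPM gave the largest rise among the members by the fitted value, a log2 fold change of 0.39 (SE 0.25, adjusted p 0.918), and the 95% interval of the fold was 0.936 to 1.82. Chd4 exceeded Smarca5 per kilobase in 17 of 18 embryos.

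The embryos of each Parg(110)-/- father were then compared with the same 9 WT embryos, so these comparisons share their controls. The labels name no mother, litter or collection day, so father cannot be told apart from these here. Hdac1 was low in all 3 embryos of father 7. It stood at 16.04, 9.18 and 12.1 CPM in 7-1, 7-2 and 7-3, and the lowest WT embryo, 2-3, was at 20.7 CPM. The 3 embryos were therefore below all 9 WT embryos, which held for 0.819% of 14039 transcripts tested in that comparison. That share covers father 7 and this direction only. The larger share for any father and either direction was not counted. The values rest on 81, 86 and 53 counts. The log2 fold change of Hdac1 for father 7 was -1.89 (SE 0.60), with a 95% interval of the fold of 0.120 to 0.606, an unadjusted p of 0.00535 and an adjusted p of 0.545 in edgeR, so it was not called. An unadjusted p below 0.05 was reached by 8.78% of all transcripts for father 7 and an adjusted p below 0.1 by 0.0%. DESeq2 called 2.65% of transcripts for this father and Hdac1 with them (log2 fold change -1.86, adjusted p 0.0114). Of the 356 transcripts called, 48 were higher than in WT embryos. Embryos of father 7 had 4390779 to 9367261 counts, within the range of the WT embryos (2852858 to 13355161 counts). They had 12064 to 13401 transcripts with a count, against 11823 to 16436 in WT embryos. Only WT embryo 2-3, at 11823 transcripts, lay lower, and the next WT embryo, 1-3, had 13407. The WT embryo of lowest depth, 2-3, was also the WT embryo of lowest Hdac1. Other embryos went the other way. The Parg(110) embryo of lowest depth, 8-1 (3560501 counts), had Hdac1 at 74.99 CPM. Of father 7, the deepest embryo, 7-2, had the lowest Hdac1. The part of depth and of the number of transcripts in the result was not tested.

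**Figure D3:**
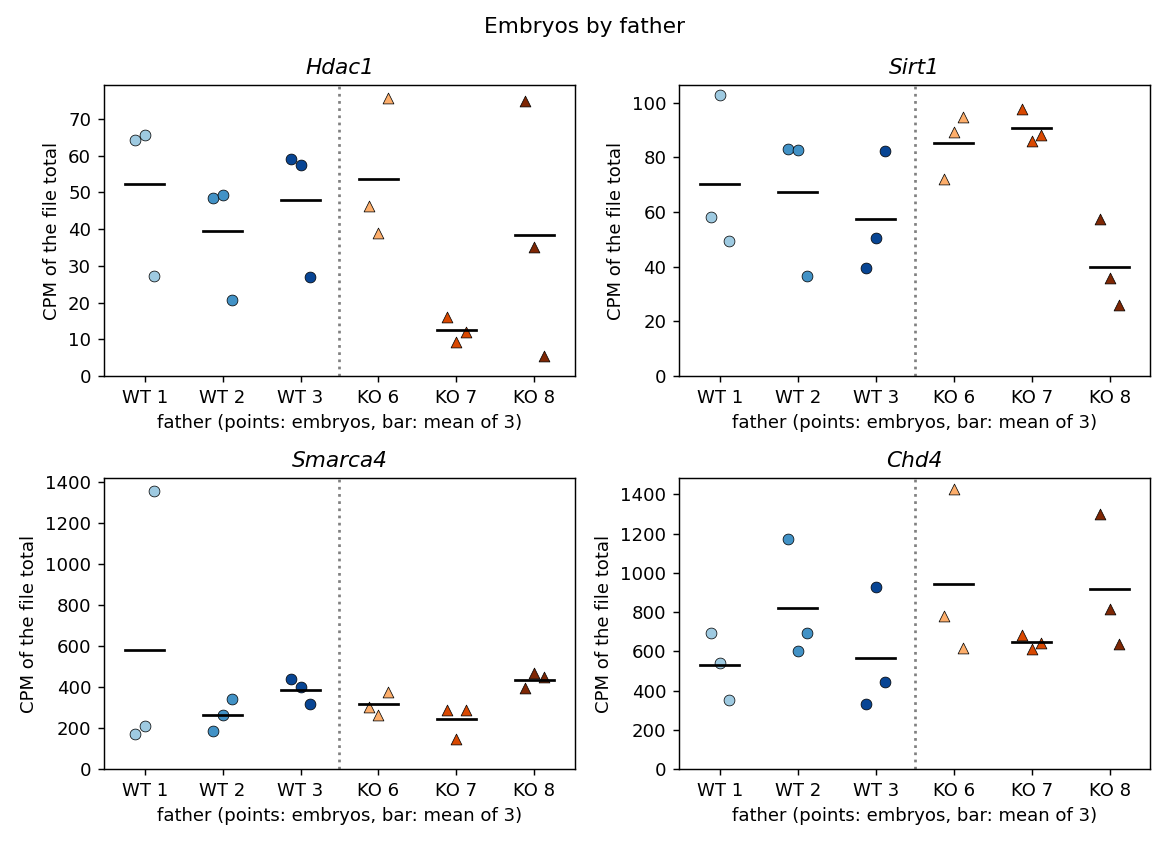
CPM of the file total in the 3 embryos of each father for Hdac1, Sirt1, Smarca4 and Chd4, with bars for the mean of 3 and a dotted line between WT (circles) and Parg(110)-/- fathers (triangles). Hdac1 stands at 9.18 to 16.04 CPM in father 7 while the 2 other Parg(110)-/- fathers each have an embryo near 75 CPM, and Smarca4 has 1 WT embryo at 1360 CPM.

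For the other Parg(110)-/- fathers Hdac1 was not on 1 side of the WT embryos. It was at 46.3, 39.0 and 75.7 CPM in the embryos of father 6 (log2 fold change 0.21, SE 0.48) and at 74.99, 35.03 and 5.42 CPM in those of father 8 (log2 fold change -0.33, SE 0.62). Embryo 8-3 thus had the lowest Hdac1 of all 18 embryos, with 39 counts, and 8-1, of the same father, nearly the highest. Within the Parg(110) group the difference between fathers was not past the threshold for Hdac1 (edgeR F test, adjusted p 1), in a fit in which 4.71% of transcripts had an unadjusted p below 0.05 and 0.0% an adjusted p below 0.1.

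Sirt1 divided the Parg(110)-/- fathers in another way. The embryos of father 6 were at 71.9, 89.3 and 94.7 CPM and those of father 7 at 97.6, 85.8 and 88.1 CPM, while those of father 8 were at 57.6, 35.9 and 25.9 CPM. The embryos of father 8 thus did not overlap with those of fathers 6 and 7, and 2 of them were below all WT embryos. Separation of father 8 from both other fathers, in either direction, was seen in 2.46% of 12501 transcripts, and 2 or 3 embryos of father 8 below all WT embryos in 5.81% of 13936. Both shares are for father 8 alone, named here because it stood apart. The larger share in which any of the 3 fathers stands apart was not counted. The F test of edgeR between these fathers gave an adjusted p of 1, and the log2 fold change of father 8 against WT was -0.74 (SE 0.47, adjusted p 0.716). Ep300 was at 584.5, 856 and 1016 CPM in father 8, and 2 of the 3 embryos were above all WT embryos (log2 fold change 0.39, SE 0.27, adjusted p 0.745), as at least 2 were in 5.11% of 13936 transcripts. Smarca4 was at 395, 469 and 449 CPM in the same embryos and at 305, 267 and 377 CPM in those of father 6. In those of father 7 it was at 291, 147 and 291 CPM. Father 8 was thus separated from both other fathers for Smarca4 too, as for the 2.46% of transcripts given above. No member was called for father 6 or father 8, where 0.00696% and 0.0% of transcripts were, and 7.18% and 8.94% had an unadjusted p below 0.05. Between the 3 WT fathers no member was called either (lowest adjusted p 0.945, for Hdac2 and Kat2a), where 0.0% of transcripts were called and 5.33% had an unadjusted p below 0.05.

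Each Parg(110) embryo was also set alone against the 9 WT embryos, as the study compared single offspring with its WT embryos. In the fits made here the spread then comes from the WT embryos. edgeR called no member in any of the 9 comparisons, and in 8-1 and 8-3 it called no transcript at all. It called 0.027%, 0.0108% and 0.0162% of transcripts in embryos 6-1, 6-2 and 6-3, 0.157%, 0.157% and 0.103% in 7-1, 7-2 and 7-3, and 0.0545% in 8-2. DESeq2 called Hdac1 in 7-2 (log2 fold change -2.23) and in 8-3 (log2 fold change -3.04), where it called 9.55% and 2.74% of all transcripts. The median log2 fold change over all transcripts in these 2 fits was itself below 0, at -1.04 in 7-2 and -0.72 in 8-3.

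The members differed in their spread between single embryos. The coefficient of variation (SD over mean, 18 embryos) was 25.9% for Ep300, 28.4% for Smarca5, 32.9% for Crebbp, 35.6% for Sirt1 and 40.7% for Chd4. It was 56.0% for Hdac1, 70.4% for Kat2a, 71.3% for Smarca4 and 77.2% for Hdac2. The median over all 15333 transcripts tested was 108%, and over the 3710 transcripts with a mean at or above that of the scarcest tested member it was 49.4%, with 5 of 9 members below and 4 above. Spread falls with level, so each member was also set beside the transcripts with a mean within 1.5-fold of its own. Of these, 7.24% had a lower coefficient of variation than Sirt1, 21.98% than Ep300, 22.5% than Smarca5, 29.9% than Hdac1 and 50.8% than Crebbp. The share was 65.4% for Kat2a, 71.4% for Chd4, 89.3% for Hdac2 and 93.4% for Smarca4, whose highest embryo is 1-3. Embryos were amplified singly, and how much of this spread is amplification was not tested. For Hdac2 the values spanned 48.4-fold from 3-2 to 1-1, and for Ep300 2.98-fold from 7-1 to 8-3.

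**Figure D4:**
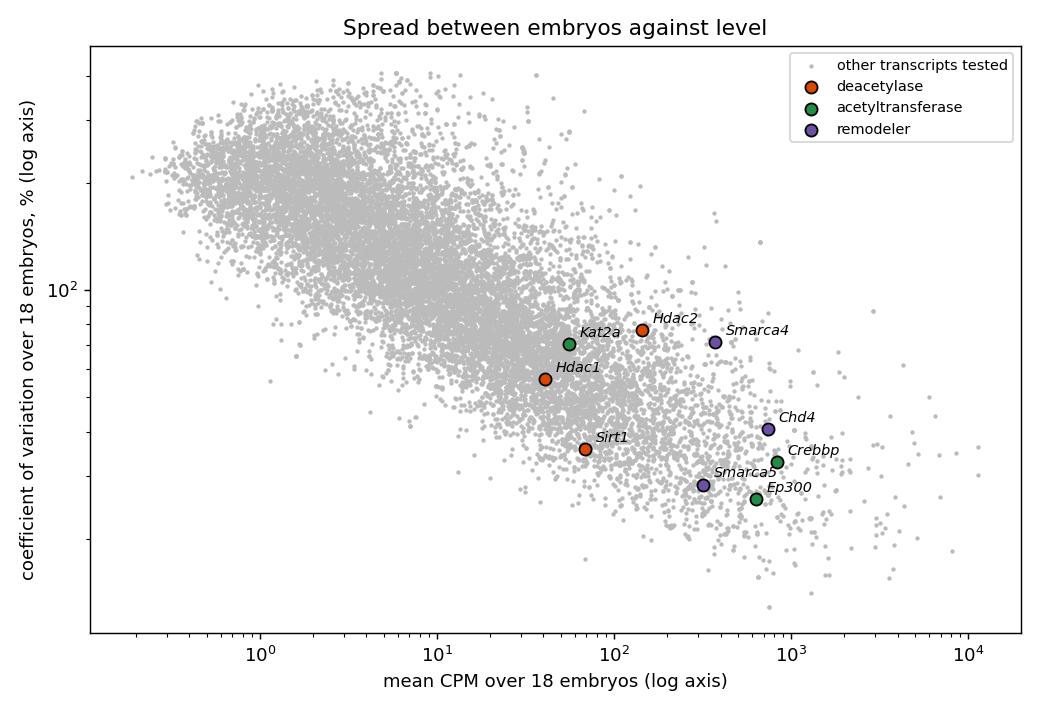
Coefficient of variation over 18 embryos against mean CPM, both on log axes, for all 15333 transcripts tested (grey) and the 9 tested members (coloured by role). Ep300 and Smarca5, at 25.9% and 28.4%, lie in the lower part of the cloud at their level, and Hdac2 and Smarca4, at 77.2% and 71.3%, in its upper part.

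Across the 18 embryos the correlations between levels of the members took both signs. Over 36 pairs of the 9 tested members Spearman's rho had a median of -0.03, and 16 pairs were positive. The extremes were Sirt1 with Smarca4 at -0.68 (-0.70 within the 9 WT and -0.62 within the 9 Parg(110) embryos) and Ep300 with Smarca4 at 0.52 (0.50 and 0.25). Sirt1 and Ep300 gave -0.52 (-0.23 and -0.73). How many pairs of all transcripts reach values of this size was not counted. Points of 1 library share its depth and amplification, and CPM values of 1 library share a total, so these are descriptions. The transcripts of other genes with the most similar pattern, chosen as the highest rho among about 15007 transcripts with a symbol, were Nsmaf for Hdac1 (0.89), Nhp2 for Hdac2 (0.82), Musk for Sirt1 (0.89), Ttc26 for Ep300 (0.83) and Cdc37l1 for Crebbp (0.78). They were Gpn2 for Kat2a (0.73), Nedd8 for Smarca4 (0.79), Serbp1 for Smarca5 (0.79) and Sema5b for Chd4 (0.72). The highest of so many values over 18 embryos is large by selection alone, and the level for unrelated transcripts was not computed.

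The wider machinery was described with 136 further genes in 8 lists. A row was found for 134 of them, 130 passed the filter, and 0 had an adjusted p below 0.1 in edgeR. An unadjusted p below 0.05 was reached by 7 genes, 3 higher and 4 lower, which is 5.38% beside the 5.8% of all transcripts, and the median log2 fold change was 0.04. None reached it among 11 other deacetylases tested, 23 deacetylase complex subunits, 23 SWI/SNF subunits, 9 ISWI subunits and 4 acetyl-lysine readers. Among the other acetyltransferases it was reached by 2 of 11 genes, among acetyltransferase complex subunits by 2 of 31 and among other remodelers by 3 of 18. By level, the other deacetylases were scarce: their 14 genes together came to 32.4 to 176 CPM in WT and 62.9 to 245 CPM in Parg(110) embryos, so that Hdac2 alone was of the order of the whole list.

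The genes with the smallest p in each direction were remodelers and acetyltransferase subunits. Ep400, the ATPase of the TIP60 complex, which exchanges histone H2A variants, was at 465 ± 163 CPM in WT (271.5 to 764) and at 731 ± 224 CPM in Parg(110) embryos (424 to 1097). Its log2 fold change of 0.66 (SE 0.23) had an unadjusted p of 0.00861 and an adjusted p of 0.5, and the ranges overlapped. Atrx, which deposits the histone variant H3.3 with Daxx, had a log2 fold change of 0.40 (SE 0.16, adjusted p 0.733), and Kat6a, a MYST acetyltransferase, one of 0.45 (SE 0.21, adjusted p 0.839). In the other direction, Tada3, a subunit shared by SAGA and ATAC with Kat2a, was at 37.2 ± 30.7 and 12.4 ± 7.34 CPM (log2 fold change -1.57, SE 0.61, adjusted p 0.653). Actr8, an INO80 subunit, was at 43.6 ± 43.2 and 10.2 ± 13.9 CPM (log2 fold change -2.05, SE 0.86, adjusted p 0.767), and Brpf3, a scaffold of the Kat7 complex, at 104 ± 81.2 and 45.3 ± 42.6 CPM (log2 fold change -1.21, SE 0.53, adjusted p 0.805). None of these 6 passed the test.

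**Figure D5:**
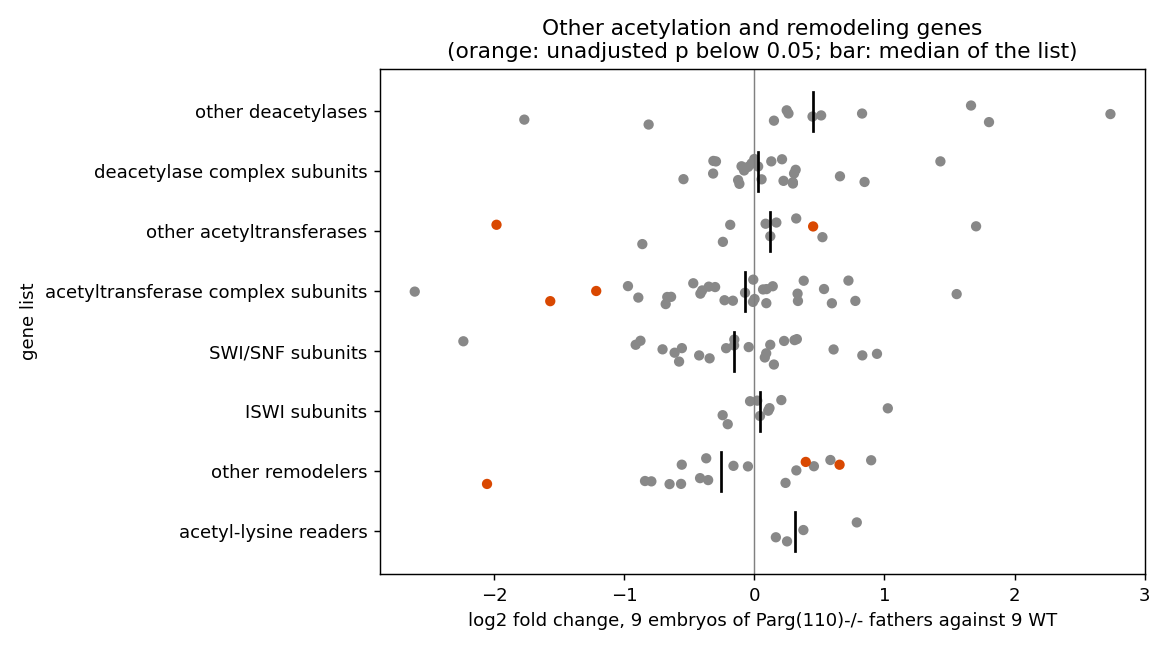
Log2 fold change of the 130 tested genes of the 8 lists, 9 Parg(110) against 9 WT embryos, with black bars for the median of a list and orange points for the 7 genes with an unadjusted p below 0.05. The medians of the lists lie between -0.26 (other remodelers) and 0.45 (other deacetylases).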

How the data were processed

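Single 2-cell embryos of WT and Parg(110)-/- fathers were sequenced (HiSeq instrument) after whole-transcript cDNA amplification of each embryo. The authors mapped reads to mm9 with RUM, allowing 1 mismatch, kept unique reads and deposited raw counts per RefSeq transcript for each embryo. Their notes name DESeq 1.10.0. The counting tool, annotation version and strand setting are not given in the sources used here. Amplification from 1 embryo can lose scarce transcripts and widen the spread between embryos, isoforms of a gene share reads, and without strand, reads of an overlapping antisense gene cannot be told apart. The intervals of folds include the spread between embryos as edgeR estimates it, and the floors of a count of 0 cover counting error only.

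Members were taken by identifier. Members and gene lists were chosen with earlier results of these data known. Levels are CPM of the file total (median total 7594021 counts in WT, 7191377 in Parg(110) embryos). Of all 153 pairs of embryos, none agreed within sampling noise (chi-square per degree of freedom at least 78). The count test was edgeR 4.0.16 (TMM, quasi-likelihood) in R 4.3.3 on all transcripts that reached 10 counts in 3 or more embryos (1 or more for single embryos), with Benjamini-Hochberg adjustment over all of them and the study's threshold of 0.1. A standard error is the fold change over the square root of F, and intervals are 1.96 standard errors to each side. The 3 embryos of 1 father share that father, which the main fit does not model (estimated correlation within fathers -0.015, limma). The comparisons were Parg(110) against WT, each Parg(110)-/- father or embryo against WT, and fathers within a genotype. Mean CPM was compared by exact permutation. Alternatives were DESeq2 1.42.0, limma 3.58.1 with father as a random effect, other scaling, filters and thresholds, sums per father, the embryo number as block, and fathers or embryos left out. The scripts were tested on simulated data. Lengths (the longest transcript of the gene) and mm9 positions are from GENCODE vM1, symbols and promoters from RefSeq (GRCm38.p6). All members are named, with the 3 other pathway genes of smallest p in each direction, the transcript of most similar pattern for each member, and Parg.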

Additional observations from a re-analysis of the deposited data

Results flagged for a closer look

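In 8 cases the highest embryo of a group stood apart from the other 8 by Dixon's criterion (gap over range above its 95% critical value for 9 samples, 20 groups examined, chance gives about 1 in 20). In WT embryos these were Hdac2 in 1-1 (gap over range 0.561, 497 CPM against 10.3 to 224), Crebbp in 1-1 (0.499, 1569 CPM against 418 to 995), Kat2a in 2-2 (0.699, 162 CPM against 21.5 to 63.8), Smarca4 in 1-3 (0.774, 1360 CPM against 171 to 440.3) and Hdac3 in 1-3 (0.797, 1.30 CPM against at most 0.263). In Parg(110) embryos they were Kat2a in 6-2 (0.649, 147 CPM against 25.8 to 68.2), Smarca5 in 6-1 (0.494, 540.4 CPM against 212 to 378) and Hdac3 in 6-2 (0.513, 8.78 CPM against at most 4.27). All of these embryos belong to father 1, 2 or 6, and the values are counts of single amplified libraries. The 1 in 20 holds for normally distributed values. How many of all transcripts the same criterion flags was not counted, so the 8 cases do not set the members apart.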

How the results depend on the processing

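Parg(110) and WT embryos were compared again under DESeq2, library totals in place of TMM, both other filters and limma with father as a random effect. Sums per father, a threshold of 0.05, the replicate block and each father left out were further alternatives. Only DESeq2 (0.248% of 15333 transcripts) and the fit without father 6 (5 of 14571) called any transcript. The other settings called none, so 0 members there is no result about the members alone. In all of these settings the count of members called stayed at 0. It rose to 1, Hdac1 each time, under DESeq2 for father 7, embryo 7-2 and embryo 8-3. With the embryo number as a replicate block 0 members were called. Deviations of same-numbered embryos had a median correlation of 0.006 (-0.122 to 0.178), so the number pairs nothing.

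No member passed the test, and 17 of 126 log2 fold changes under alternatives changed sign. Crebbp, at 0.00, turned to 0.0308 under DESeq2, 0.0037 without a filter, 0.012 when 10 counts were asked in 9 embryos, 0.0007 with the replicate block, and 0.0702 on the log2(CPM + 1) scale. Smarca4 turned to 0.0038 with father as a random effect, to 0.20 without embryo 1-3 (an alternative chosen after seeing the data; difference in mean CPM 39.9) and to 0.04 without father 1.

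With 1 father left out, log2 fold changes ranged from -0.92 to -0.03 for Hdac1, -0.94 to 0.06 for Hdac2, -0.05 to 0.45 for Sirt1, -0.16 to 0.14 for Ep300, -0.13 to 0.16 for Crebbp, -0.18 to 0.53 for Kat2a, -0.56 to 0.04 for Smarca4, -0.06 to 0.16 for Smarca5 and 0.28 to 0.61 for Chd4. The sign turned without father 1 for Hdac2 (0.0593) and Crebbp (0.11), without father 2 for Ep300 (-0.05) and Smarca5 (-0.02), without father 3 for Kat2a (-0.18), without father 6 for Crebbp (0.16), Kat2a (-0.15) and Smarca5 (-0.0596), without father 7 for Sirt1 (-0.0547) and without father 8 for Ep300 (-0.16). The causes were not tested. Hdac3, near the floor in most embryos, did not pass the filter of the group and father fits, and no fold is given for them. In the fits of 6-2 and of 7-2 alone against WT, Hdac3 passed the filter only through the 84 and 40 counts of these 2 embryos. Its log2 fold changes there, 5.49 (SE 2.44) and 4.54 (SE 2.65), were high by that selection and are no result.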
